A study of Homo sapiens with 4 samples.

Results

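ACSBG1, the member of the acyl-CoA synthetase family with one of the largest falls in nascent transcription after KAP1 depletion, was examined together with 6 relatives (ACSL1, ACSL3, ACSL4, ACSL5, ACSS1 and ACSS2) and with IDH3A, the gene that it overlaps on the opposite strand. These 8 genes were taken by symbol from 19901 protein-coding genes in the count table, and 7 of the 8 reached the minimum for testing of 50 counts in each of the 4 libraries, as did 12612 genes in all. ACSBG1 was chosen by its fall between the same libraries that are described here, IDH3A by position and the others by family, so the change of ACSBG1 is given as a description without a test.

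The counts come from TT-Seq, which purifies RNA labeled over a few minutes with the nucleoside 4sU and so reads transcription rather than the RNA pool. HCT116 is a human colon cancer line, and in the KAP1dTAG derivative used here the KAP1 protein, encoded by TRIM28, carries a degron tag through which the compound dTAG sends it to the proteasome. All 4 libraries come from this 1 clone (D5), so that the tag is present in both groups. The DMSO group received solvent and the dTAG group received dTAG, both for 8 h with 500 μM 4sU during the last 10 min. There were 2 biological replicates per group.

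Acyl-CoA synthetases join a fatty acid to coenzyme A at the cost of ATP, which is the step that commits the fatty acid to oxidation, to esterification into lipids or to protein acylation. The family is divided by chain length: the ACSS enzymes activate acetate, the ACSL enzymes long-chain fatty acids, and the bubblegum enzymes, of which ACSBG1 is one, long and very long chains, with ACSBG1 best known from brain, adrenal gland and gonads. IDH3A encodes the catalytic subunit of the mitochondrial NAD-dependent isocitrate dehydrogenase of the tricarboxylic acid (TCA) cycle and is unrelated to the synthetases in function.

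The sequences just upstream of the RefSeq start sites of ACSBG1 and IDH3A are printed because the genes lie side by side but differ widely in transcription. Each is the 250 bases before the start site, 5′ to 3′ on the strand of the gene, from RefSeq (GRCh38.p14). The ACSBG1 window is chr15:78234566-78234815 on the minus strand and the IDH3A window is chr15:78149112-78149361 on the plus strand. Capitals mark the GC box, searched as GGGCGG and, for the other strand, CCGCCC.
ACSBG1: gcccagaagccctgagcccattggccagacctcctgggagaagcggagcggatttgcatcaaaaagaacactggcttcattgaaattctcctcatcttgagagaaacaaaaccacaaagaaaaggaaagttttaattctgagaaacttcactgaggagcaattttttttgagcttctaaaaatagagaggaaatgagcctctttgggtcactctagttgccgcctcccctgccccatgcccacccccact
IDH3A: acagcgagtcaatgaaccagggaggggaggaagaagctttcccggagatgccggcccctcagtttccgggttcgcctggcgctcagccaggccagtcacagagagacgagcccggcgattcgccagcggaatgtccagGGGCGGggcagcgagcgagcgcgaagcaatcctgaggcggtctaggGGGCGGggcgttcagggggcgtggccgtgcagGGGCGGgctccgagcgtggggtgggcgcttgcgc

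The ACSBG1 window held no GC box and 3 CpG dinucleotides at a GC content of 47.2%. The IDH3A window held 3 GC boxes and 26 CpG dinucleotides at 70.0% GC. Over all 35116 RefSeq windows of this length, 42.6% held a GC box, the median number of CpG dinucleotides was 11 and the median GC content was 58.0%. The CpG number lay at the 22.9th percentile for ACSBG1 and the 80.4th for IDH3A. Among the other members, taking the start site farthest upstream, ACSL1, ACSL3, ACSL4 and ACSS1 had CpG-rich windows with 22 to 42 CpG dinucleotides. ACSL5 and ACSS2, like ACSBG1, had 3 CpG dinucleotides. The windows of ACSL1, ACSL3, ACSL4, ACSL5, ACSS1 and ACSS2 held 5, 3, 2, 0, 4 and 1 GC boxes. Of these genes ACSL5 was the most transcribed in DMSO, and ACSS1 had 3 counts or fewer in every library. A link between the windows and transcription was not tested. A match of letters is a description of the window and does not show that a factor binds there.

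The counts on genes summed to between 93105627 and 102314741 per library, of which 99.9% lay in tested genes. The epithelial markers EPCAM, CDH1, KRT8, KRT18 and KRT19 had 12215 to 43667 counts in every library. Of 7 markers of other cell types, PTPRC, CD3E, DCN and COL3A1 had 0 to 5 counts, PECAM1 had 24 to 39, VWF 141 to 217 and COL1A1 420 to 538. The TRIM28 transcript was at 47.9 to 69.8 CPM (counts in 1e6 counts) and does not check the labels, since dTAG acts on the protein. In bulk RNA, fewer transcribing cells and less RNA per cell cannot be told apart. Across the 12612 genes the log2 fold change moved with GC content (Spearman's rho of −0.56) and with gene length (0.42). A fit with both trends removed is given for some of the results below. It is not given for the genes around ACSBG1 other than IDH3A, so the part of the trends in their values is left unstated.

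In the DMSO libraries ACSBG1 was transcribed at a low level, and this level was lower still in both dTAG libraries. ACSBG1 (ENSG00000103740.9, chr15:78167468-78245688, minus strand of hg38, 78.2 kb) had 446 and 455 counts in the DMSO libraries (replicates 1 and 2) and 147 and 185 counts in the dTAG libraries. After scaling by the trimmed mean of M values (TMM) these were 4.50, 4.56, 1.47 and 2.05 CPM. The DMSO libraries nearly coincided and both dTAG libraries lay well below them, with dTAG replicate 1 the lower of the pair. The mean was 4.53 ± 0.0407 CPM with DMSO and 1.76 ± 0.412 CPM with dTAG (SD, n = 2 each). The log2 fold change of −1.37, with a standard error of 0.21 and a 95% interval from −1.81 to −0.93, corresponds to a level 2.58-fold lower, and it was the third lowest of the 12612 genes. These are the values that chose the gene.

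The size of this value varied with the dTAG libraries more than with the DMSO libraries. It was −1.63 without dTAG replicate 2 and −1.14 without dTAG replicate 1, and −1.38 and −1.36 without DMSO replicate 1 or 2. With the trends on GC content and gene length removed it was −1.34. The replicate difference in the dTAG group, 0.48 on the log2 scale between the replicates, was larger than for any other tested member and rests on 147 and 185 counts.

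**Figure D1:**
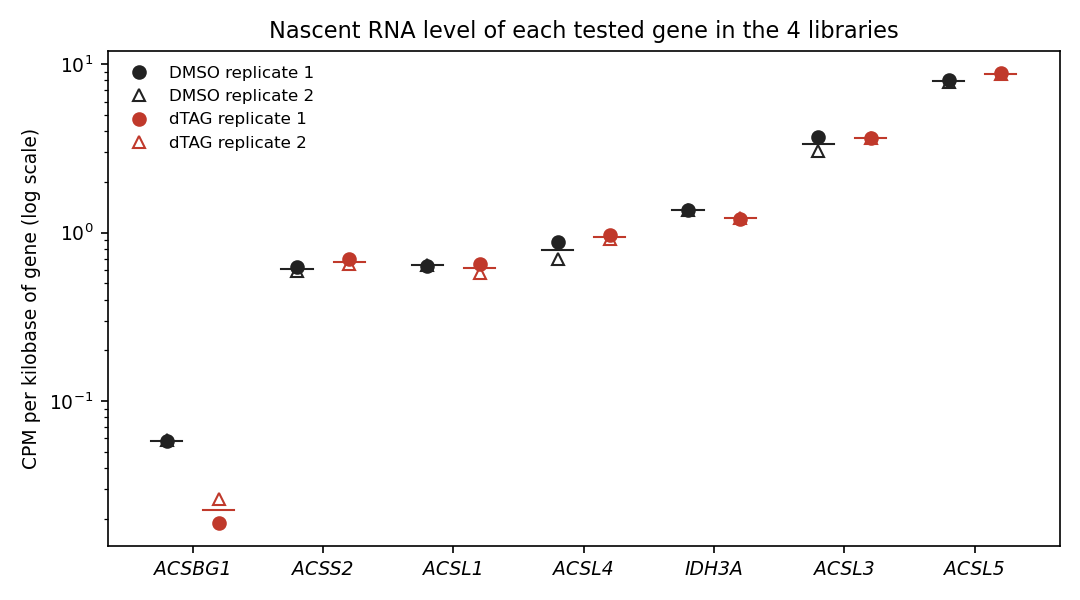
Level of the 7 tested genes in CPM per kilobase of gene (log axis), with filled circles for replicate 1, open triangles for replicate 2, black for DMSO, red for dTAG and bars at the mean of 2 libraries. ACSBG1 lies at 0.0576 and 0.0583 in DMSO and at 0.0188 and 0.0262 in dTAG, while the other 6 genes lie at 0.57 or above in every library.

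Compared per kilobase of gene, so that long and short genes stand on 1 scale, ACSL5 was the most transcribed of the 8 genes in DMSO, at 7.95 ± 0.107 CPM per kilobase (SD, n = 2). It was followed by ACSL3 at 3.38 ± 0.452, IDH3A at 1.36 ± 0.00369 (2.44 when counted per kilobase from its RefSeq start) and ACSL4 at 0.782 ± 0.128. Next came ACSL1 at 0.638 ± 0.00191, ACSS2 at 0.607 ± 0.0266 and ACSBG1 at 0.0579 ± 0.00052. ACSS1 was last, with 0 and 3 counts. The DMSO ranges of neighbours in this order did not overlap, but ACSL1 was only 1.05-fold above ACSS2 and ACSL4 only 1.23-fold above ACSL1. ACSBG1 stood 10.5-fold below ACSS2. Among all tested genes its level was at the 7.52th percentile, against the 94.8th for ACSL5 and the 84.5th for ACSL3. ACSL5 and ACSL3 had the highest nascent levels of the ACSL genes here, which does not give the amounts of the enzymes. ACSL3 and ACSL5 together gave 80.4% to 81.3% of the counts of the 7 synthetases in each library. ACSBG1 gave 0.486% and 0.541% with DMSO and 0.150% and 0.213% with dTAG.

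None of the 4 long-chain synthetases passed the test. ACSL1 (chr4:184755595-184826818), an enzyme prominent in liver, fat and muscle, was at 45.3 and 45.5 CPM with DMSO and at 46.2 and 40.9 CPM with dTAG. The groups overlapped, and the log2 fold change was −0.06 (95% interval −0.25 to 0.13, adjusted p = 0.70 in the quasi-likelihood test of edgeR, adjusted after Benjamini and Hochberg over 12612 genes, as throughout).

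ACSL3 (chr2:222860934-222944639), an enzyme of the endoplasmic reticulum and of lipid droplets, was at 309 and 256 CPM with DMSO and at 304 and 307 CPM with dTAG. DMSO replicate 2 was low, while the dTAG libraries were level with DMSO replicate 1. The log2 fold change was 0.11 (95% interval −0.10 to 0.32, edgeR adjusted p = 0.49), and it became 0.25 without DMSO replicate 1, with an edgeR adjusted p of 0.0035, and −0.02 without DMSO replicate 2.

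ACSL4 (chrX:109624244-109733403) prefers arachidonic acid and supplies the polyunsaturated lipids that are oxidized in ferroptosis. It was at 95.3 and 75.5 CPM with DMSO and at 105 and 100 CPM with dTAG. Both dTAG libraries were above both DMSO libraries, of which replicate 2 was again the lower. The log2 fold change was 0.27 (95% interval 0.06 to 0.47), with an unadjusted p of 0.012 and an adjusted p of 0.090 in edgeR's test, so it did not pass. Here 1 DMSO library set the size: it was 0.44 without DMSO replicate 1 (edgeR adjusted p = 2.1e-08) and 0.11 without DMSO replicate 2 (0.34). It was 0.13 with the GC and length trends removed and 0.0029 with a factor from the ERCC spike-in RNAs in the fit.

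ACSL5 (chr10:112374018-112428380), the long-chain synthetase characteristic of intestinal epithelium, was at 437 and 428 CPM with DMSO and at 480 and 476 CPM with dTAG. The dTAG libraries were above the DMSO libraries, with a log2 fold change of 0.15 (95% interval −0.05 to 0.34, edgeR adjusted p = 0.33). Summed over the 4 ACSL genes, the level was 887 and 805 CPM with DMSO and 935 and 925 CPM with dTAG.

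Of the acetate-activating members, ACSS2 reached the count minimum and ACSS1 did not. ACSS2 (chr20:34872146-34927962), which makes acetyl-CoA in the cytosol and nucleus, was at 34.9 and 32.8 CPM with DMSO and at 38.6 and 36.2 CPM with dTAG. The groups did not overlap, and the log2 fold change was 0.14 (95% interval −0.06 to 0.34, edgeR adjusted p = 0.34). ACSS1 (chr20:25006230-25058980), the mitochondrial acetate enzyme, had 0 and 3 counts with DMSO and 1 and 0 counts with dTAG. These are at or under a floor of 3 counts, so that no fold change is given.

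IDH3A (ENSG00000166411.13, chr15:78131498-78171949, plus strand, 40.5 kb) was at 55.3 and 55.1 CPM with DMSO and at 48.8 and 49.4 CPM with dTAG. The replicates of each group were close, and both dTAG libraries were below both DMSO libraries. The mean was 55.2 ± 0.149 CPM with DMSO and 49.1 ± 0.368 CPM with dTAG (SD, n = 2 each), a log2 fold change of −0.17 (95% interval −0.35 to 0.01) that did not pass edgeR's test (adjusted p = 0.21). With the GC and length trends removed it was −0.20 with an edgeR adjusted p of 0.018, a fit that called 18.0% of all tested genes. The lower end of the interval with TMM scaling, −0.35, lay above the −1.37 of ACSBG1, which was chosen by its fall.

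Across these genes, 0 of the 6 tested members other than ACSBG1 passed an adjusted p of 0.05 in edgeR's test, 0 did in DESeq2, and 1, ACSL4, had an unadjusted p under 0.05. Over all genes edgeR called 7.10%, of which 3.66% of tested genes were lower and 3.44% higher with dTAG, that is 461 and 434 genes. With upper-quartile normalization the split was 869 lower and 255 higher, and with the ERCC factor 713 and 439. The dTAG and DMSO libraries did not overlap for 5 of the 7 tested members (ACSBG1, ACSL4, ACSL5, ACSS2 and IDH3A). With 2 libraries per group this was the case for 58.8% of all tested genes, so that it says little about any 1 of them.

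**Figure D2:**
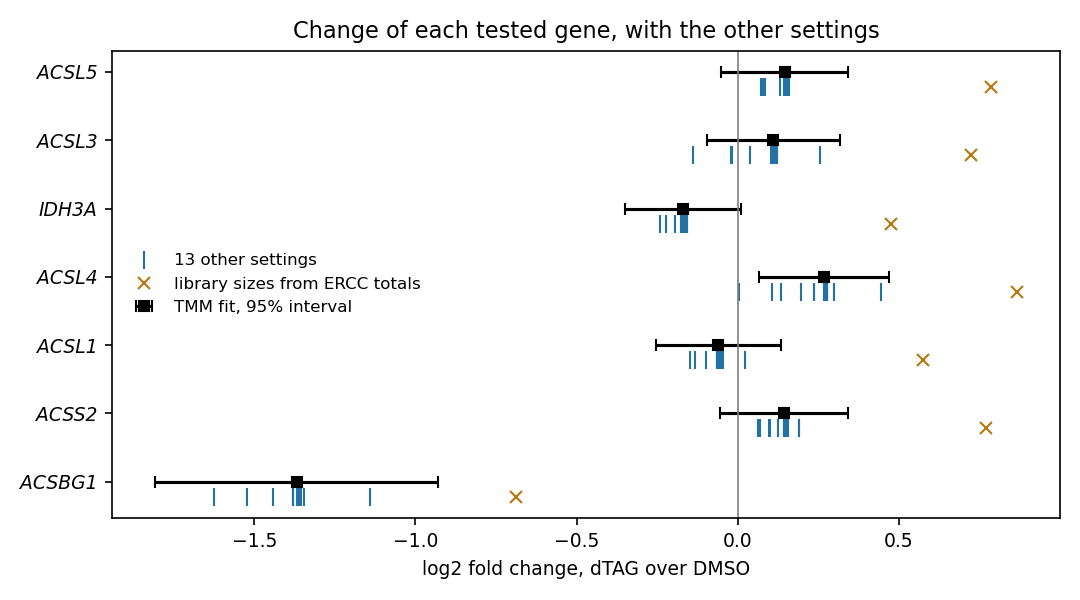
Log2 fold change (dTAG over DMSO) of the 7 tested genes from the edgeR fit with TMM scaling (squares, 95% interval), with the 13 other settings as blue ticks and the scaling to ERCC totals as crosses. ACSBG1, chosen by its fall in these libraries, stays below 0 in all of them, from −1.63 to −0.69. The intervals of ACSL1, ACSL3, ACSL5, ACSS2 and IDH3A include 0, and the crosses of all genes are moved to the right.

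Scaling to ERCC totals raised the log2 fold change of the median gene from −0.01 to 0.63. The ERCC RNAs made up 0.0265% as many counts as the genes in DMSO replicate 2 and 0.0103% to 0.0150% in the other libraries. On that scale ACSBG1 had a log2 fold change of −0.69 and IDH3A of 0.48. Relative to the median of all genes these were −1.32 and −0.16, near the −1.35 of ACSBG1 relative to the median with TMM. A change of library sizes moves all genes by nearly the same amount, which the median takes out again. This nearness was therefore fixed in advance and is not support for the fall.

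ACSBG1 and IDH3A run toward each other, and their intervals share 4482 bases at their 3′ ends (chr15:78167468-78171949), which is 5.7% of ACSBG1 and 11.1% of IDH3A. In the canonical transcripts of GENCODE 44 this stretch holds the last exon of each gene. It covers 4062 exonic bases of ACSBG1, of which 83 are coding and the others untranslated, and 3024 exonic bases of IDH3A, of which 81 are coding. Since IDH3A had 5475, 5494, 4890 and 4453 counts in the 4 libraries, far more than ACSBG1 in each, counting by strand matters for the lower gene.

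The count table itself shows how strand was treated. Of 805 genes that lie wholly inside another gene on the same strand, all 805 had 0 counts, whereas of 664 genes inside a gene on the opposite strand 525 had counts and 153 had more counts than their host. RPL32, a ribosomal protein gene inside CAND2, had 157767 counts over the 4 libraries and CAND2 had 239. Reads were therefore assigned by strand, and reads that fit several genes on 1 strand were left out. ACSBG1 overlaps no counted gene on its own strand, while ACSL4 shares 929 bases with KCNE5 on its own strand and loses those reads. ACSL5 overlaps ZDHHC6, ACSS2 overlaps GGT7 and IDH3A overlaps CIB2 as well as ACSBG1, all on the opposite strand.

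The overlapping genes can be set side by side within each library. ACSBG1 had 8.15% and 8.28% as many counts as IDH3A with DMSO, and 3.01% and 4.15% with dTAG. Per kilobase of each gene the ratio was 4.21% and 4.28% with DMSO and 1.55% and 2.15% with dTAG. These ratios are over the whole intervals, of which the shared stretch is a small part, so they set no scale for wrong-strand reads. Per kilobase from the RefSeq starts, the DMSO levels were 0.0675 CPM for ACSBG1 and 2.44 CPM for IDH3A. The position of reads inside a gene is not known from whole-gene counts, and the part of wrong-strand reads in the ACSBG1 counts was not tested.

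Genes around ACSBG1 are given as a description, since a gene chosen by its fall lies below nearly all others by choice. Within 1 Mb on either side there were 20 other genes, of which 17 were tested, and their median log2 fold change was −0.08, with a range from −0.40 to 0.17. None of the 17 was called higher and 1, the metalloprotease gene ADAMTS7, was called lower (−0.39, edgeR adjusted p = 0.042), beside 3.66% of all tested genes called lower. DESeq2 also called 1, and 3 had an unadjusted p under 0.05. Within 200 kb, CIB2, a calcium-binding protein gene that overlaps IDH3A by 38 bases, was at 17.5 and 21.0 CPM with DMSO and at 16.7 and 14.9 CPM with dTAG (log2 fold change −0.29, edgeR adjusted p = 0.15). DNAJA4, TBC1D2B and SKIC8 had log2 fold changes of −0.08, −0.02 and −0.04, and IREB2, an iron-regulatory RNA-binding protein gene, of 0.14. SH2D7 and CRABP1 had 4 counts or fewer in every library and were not tested.

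**Figure D3:**
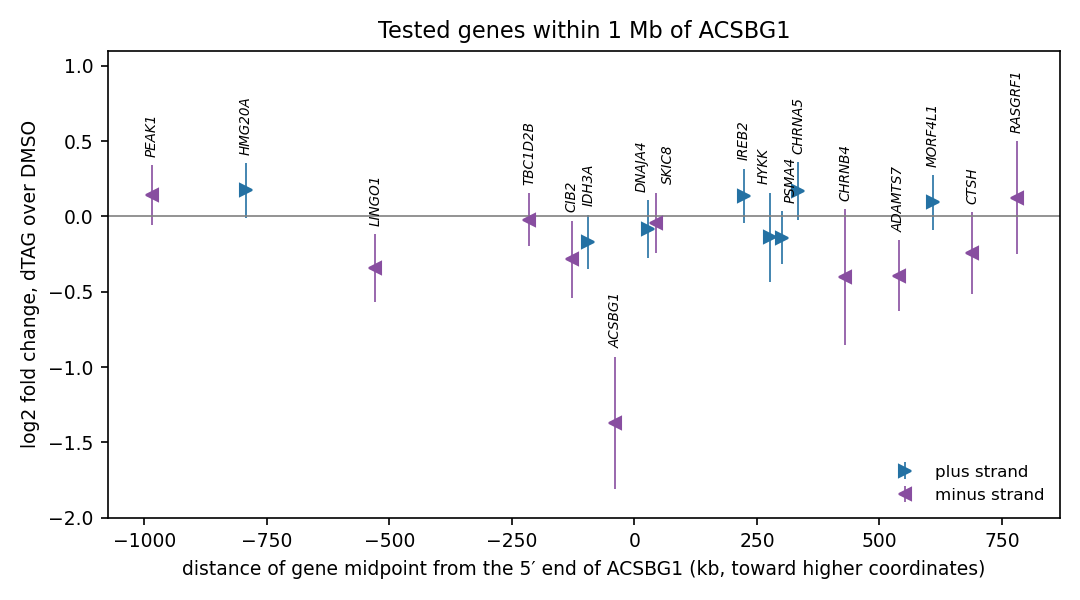
Log2 fold change (dTAG over DMSO, with 95% interval) of the 17 tested neighbours and ACSBG1 against the distance of each gene's midpoint from the 5′ end of ACSBG1 in kb, positive toward higher coordinates, with right-pointing triangles for the plus strand and left-pointing triangles for the minus strand. ACSBG1, chosen by its fall in these libraries, lies at −1.37 and the neighbours lie between −0.40 and 0.17.

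Among the other genes of the family, 1 passed the test. Over the 27 acyl-CoA synthetase genes examined, counting the 7 above, 18 were tested and 9 were below the minimum, with at most 69 counts in any library. By DMSO level per kilobase ACSBG1 ranked 15th of the 27, above ACSM3, SLC27A6 and ACSBG2, its closest relative, which had 57 to 59 counts in every library and a log2 fold change of 0.08 (95% interval −0.54 to 0.69). The 17 tested genes other than ACSBG1 had log2 fold changes from −0.34 to 0.27. Of the 12 tested genes outside the members, 1 fell and 0 rose in edgeR's test, DESeq2 called 1, and 1 had an unadjusted p under 0.05. This was ACSF2, a mitochondrial medium-chain synthetase linked to ferroptosis, which went from 41.6 and 49.0 CPM with DMSO to 37.7 and 33.9 CPM with dTAG (log2 fold change −0.34, edgeR adjusted p = 0.047). The share called, 8.33%, was near the 7.10% of all genes.

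The partners of IDH3A and the TCA cycle showed no call. All 16 tested genes of 17 had log2 fold changes between −0.21 and 0.18, with a median of −0.02. None passed edgeR's or DESeq2's adjusted p, and 0 had an unadjusted p under 0.05. The other subunits of the enzyme, IDH3B and IDH3G, had log2 fold changes of −0.13 (95% interval −0.33 to 0.07) and −0.16 (−0.41 to 0.08), beside the −0.17 of IDH3A. With the GC and length trends removed, the signs of IDH3B and IDH3G turned, to 0.03 and 0.11, while IDH3A was at −0.20.

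Among genes that use or remove acyl-CoA, 7 of 52 tested genes (13.5%) passed the test, in both directions, beside 7.10% of all tested genes. In the carnitine shuttle and beta-oxidation, 1 of 24 tested genes fell and 0 rose in edgeR's test, DESeq2 called 1, and 1 had an unadjusted p under 0.05. The median was −0.0022. ACAA1, a peroxisomal thiolase, went from 39.3 and 50.4 CPM to 35.5 and 30.2 CPM (log2 fold change −0.45, edgeR adjusted p = 0.021).

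Among genes of acyl-CoA hydrolysis and binding, 2 of 12 tested genes rose and 1 fell. This is 25% called, beside 7.10% of all tested genes (3.44% higher and 3.66% lower), and the lists were not tested as sets. The thioesterase gene ACOT9 went from 44.9 and 43.1 CPM to 57.9 and 55.9 CPM (log2 fold change 0.37, edgeR adjusted p = 0.016), and THEM4 rose by 0.34 (0.021). ACOT11 fell by 0.32 (edgeR adjusted p = 0.043). In acyl-CoA esterification, which builds glycerolipids, 2 of 16 genes rose and 1 fell, or 18.8% called. GPAT3, a glycerol-phosphate acyltransferase, was at 49.0 and 44.2 CPM with DMSO and at 71.1 and 73.4 CPM with dTAG, the largest rise in these lists (log2 fold change 0.63, edgeR adjusted p = 1.4e-04). AGPAT5, which adds the second acyl chain, rose by 0.42 (0.012), and DGAT1, which makes triacylglycerol, fell by 0.52 (edgeR adjusted p = 0.028).

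Together, 4 genes rose and 4 fell of 80 tested genes in the 5 lists, or 10%, beside 7.10% of all tested genes (3.44% higher and 3.66% lower), with a median log2 fold change of −0.0017 beside −0.01 over all genes. The 4 that rose had a GC content of 38.6% to 44.6%, and all 4 that fell were above that range, up to 63.0%. With the GC and length trends removed, the edgeR adjusted p of DGAT1 was 0.12, while the other 7 stayed under 0.05. That fit called 15 of the 80 list genes, beside 18.0% of all tested genes. Calls also depended on single libraries: without DMSO replicate 1 there were 16 higher and 13 lower, and without dTAG replicate 1 or 2 there was 1 higher and 0 lower.

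**Figure D4:**
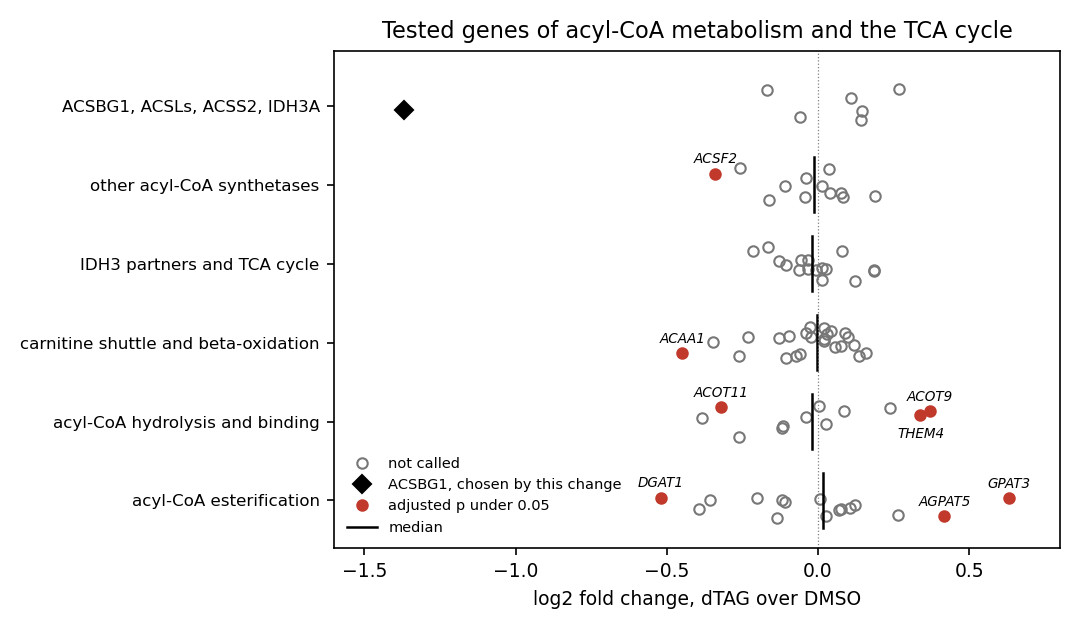
Log2 fold change (dTAG over DMSO) of each tested gene in the list of members and in the 5 other lists, with called genes filled and named and a vertical bar at each list's median. ACSBG1 (diamond), chosen by its fall in these libraries, is at −1.37, outside the range of −0.52 to 0.63 that holds the 80 genes of the other lists.

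The genes whose 4 library values were most like those of ACSBG1 were found by the Euclidean distance between log2 CPM values centred on each gene's mean, over all tested genes and 4 libraries. ACSBG1 was at 0.68 and 0.70 in DMSO and at −0.93 and −0.45 in dTAG on this scale. The nearest was MUC22, a mucin gene, at a distance of 0.25, followed by MAP2K6, a kinase of the p38 pathway, at 0.37, the transcription factor gene ETV7 at 0.41, PPM1N at 0.45 and SAMD11 at 0.50. MUC22 was at 4.85 and 4.92 CPM with DMSO and at 1.95 and 2.45 CPM with dTAG. Since the likeness was to a gene picked for its fall, these genes are low with dTAG by choice, and their values are a description.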

How the data were processed

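Before deposition the authors trimmed the TT-Seq reads, mapped them to hg38 with STAR and counted them with featureCounts over entire protein-coding genes and the 92 ERCC standards. The deposited table holds raw counts, not normalized, for 19901 genes in 4 libraries. All 4 columns were used, and file starts were raised by 1 to count from 1. How overlapping reads and strand were handled was read from the counts of nested genes.

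A gene was tested when each of the 4 libraries held 50 or more counts. Counts were fitted with edgeR 4.0.16 (R 4.3.3), TMM factors of 0.970 to 1.05, 1 term for dTAG against DMSO, and the two-sided quasi-likelihood F test with Benjamini-Hochberg adjustment over 12612 genes. A call is an adjusted p under 0.05. Replicates were described as biological, and 2 per group limit the precision more than counting error does. Alternatives were DESeq2 1.42.0, upper-quartile and ERCC scaling, the likelihood ratio test, other count minimums, a replicate block, removal of the GC and length trends by lowess and leaving out each library. Each fit was tested on simulated counts with known changes, and the fit with ERCC totals as library sizes recovered none of them. The simulated counts followed the TMM library sizes while the ERCC counts were the real ones. This simulation therefore cannot judge the fit with ERCC totals. Libraries with the same replicate number did not deviate together (correlation of deviations −0.244). Whether they were prepared together is not stated by the authors.

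Members and lists were chosen with earlier results of these data known. Named genes were the 8 members, called genes of each list (at most 4), genes within 200 kb of ACSBG1 or overlapping a member, and the 5 genes nearest to ACSBG1. ADAMTS7, ACSM3, SLC27A6, ACSBG2, IDH3B, IDH3G and the nested pair RPL32 and CAND2 were added after their values were seen. A comparison of protein sequences was not analysed here, and 1 gene of the lists is not reported here.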

Additional observations from a re-analysis of the deposited data

How the results depend on the processing

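ACSBG1 was lower with dTAG under all 14 alternatives, from −1.63 to −0.69 on the log2 scale, and the 2 replicates and its 147 to 455 counts limit the size. The gene was chosen by its fall in these same libraries, so the shared sign is a description and not support. ERCC totals gave −0.69, and leaving out a library −1.63 to −1.14. Signs turned for ACSL1 (0.57 with ERCC totals, −0.15 to 0.0237 without a library, positive without dTAG replicate 2), ACSL3 (−0.14 with the ERCC factor, −0.0175 with the trends removed, −0.021 to 0.25 without a library, negative without DMSO replicate 2) and IDH3A (0.48 with ERCC totals). Per kilobase from the RefSeq start, DMSO levels were 0.0675 CPM for ACSBG1 and 2.44 CPM for IDH3A. The causes were not tested.

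Calls over all genes, higher and lower, were 670 higher with DESeq2, 255 and 869 with upper-quartile scaling, 713 lower with the ERCC factor, 729 and 864 with the likelihood ratio test, 673 and 744 with no count filter, and 1347 and 929 with the trends removed. ERCC totals gave 0 and 0 by edgeR, with 229 genes at an unadjusted p under 0.05. Without a library they were 48 to 2798 higher and 21 to 2693 lower, the most without DMSO replicate 1. Members other than ACSBG1 called were 1 with no count filter (ACSL4), 1 with the trends removed (IDH3A), and 0 to 2 without a library, the 2 being ACSL3 and ACSL4 without DMSO replicate 1. List genes called higher were 0 with ERCC totals, 10 with the trends removed and 1 to 16 without a library. List genes called lower were 0 with ERCC totals and 0 to 13 without a library.

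The replicate block gave 162 higher and 178 lower calls over all genes, and in the lists 1 higher and 1 lower, and it called no member besides ACSBG1. With the numbers crossed, chosen after seeing the data as was the RefSeq start, the replicate block gave 1587 and 1603 calls, 7 list genes lower and 1 other member called.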
